A study of Mus musculus with 4 samples.

Results

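The resistin-like (RELM) genes Retnlb, Retnla and Retn, the interleukin receptor genes Il4ra, Il13ra1 and Il13ra2, the transcription factor gene Stat6 and the alarmin gene Il33 were followed in intestinal crypts of wildtype mice and of mice with CREPT deleted from the epithelium. These 8 genes were taken by name from the 53845 entries of a count table. The set was chosen by its measured difference between the genotypes, of which that of Retnlb was known, and by its place in the IL-4 and IL-13 pathway, so the values of the 8 genes in that comparison are given as a description without a test. Reads were found for 6 of the 8 genes, and all 6 passed the filter on low counts that left 17504 genes for testing.

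RNA-seq was performed on small intestinal crypts released with EDTA from C57BL/6 mice, with 2 libraries of wildtype (WT) mice and 2 of Vil-CREPTKO mice. In Vil-CREPTKO, Cre under the villin promoter removes floxed exon 3 of the CREPT gene (Rprd1b, a regulator of transcription by RNA polymerase II) from intestinal epithelium, so immune and stromal cells in the same preparation keep it. The study's reporting summary gives mice of 6 to 8 weeks and of both sexes. A supplementary legend gives the mating behind its birth ratio as Villin-cre;CREPT fl/fl with CREPT fl/fl animals. Whether the WT mice of the RNA-seq came from that mating is not stated. The study's legends give 2 mice per genotype for its RNA-seq, and the labels name no animal.

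Libraries held 47241049 to 49369315 counts, and Rprd1b was at 60.5 and 61.6 CPM (counts scaled to the library total after TMM adjustment) in WT and at 26.3 and 29.0 CPM in Vil-CREPTKO. All 11 crypt epithelium markers, Epcam and Lgr5 among them, had reads in every library, with summed levels of 11422 and 11796 CPM in WT and 10934 and 12659 CPM in Vil-CREPTKO. WT replicate 2 stood apart by sex: Xist was at 863 CPM with no reads of 4 Y-linked genes, whereas Xist was at 0.299 to 0.529 CPM and the Y-linked genes at 148 to 164 CPM in the remaining 3. Results that rest on this library are therefore also given without it.

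RELM proteins are small secreted proteins rich in cysteine. In the intestine RELMβ, the product of Retnlb, is released by goblet cells into the mucus, and it is known for its induction during worm infection and by bacterial colonization. The signal usually runs from alarmins such as IL-33 to lymphoid cells that make IL-4 and IL-13, then to epithelial receptors built from IL-4Rα and IL-13Rα1, whose Janus kinases phosphorylate STAT6. IL-13Rα2 binds IL-13 as a decoy.

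How far reads can tell the RELM genes apart bears on the level given to Retnlb, so the end of each coding sequence is shown. The lines give the last 120 coding bases before the stop codon, 5′ to 3′, from GENCODE M21 (GRCm38), with Retnlb in capitals throughout and, in the other genes, capitals where the base is identical to Retnlb at the aligned position. The alignment of Retn has a gap in this stretch that is not printed, so part of its line is shifted against that of Retnlb. Retnlg, the fourth mouse RELM gene and not one of the 8, was added as the closest relative.
Retnlb: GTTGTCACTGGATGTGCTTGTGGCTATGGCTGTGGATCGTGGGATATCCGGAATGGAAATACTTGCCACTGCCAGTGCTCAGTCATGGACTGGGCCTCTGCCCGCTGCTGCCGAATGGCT
Retnlg: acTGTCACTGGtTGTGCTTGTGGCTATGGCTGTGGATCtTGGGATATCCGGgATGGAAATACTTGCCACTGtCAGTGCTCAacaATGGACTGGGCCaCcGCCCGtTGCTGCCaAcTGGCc
Retnla: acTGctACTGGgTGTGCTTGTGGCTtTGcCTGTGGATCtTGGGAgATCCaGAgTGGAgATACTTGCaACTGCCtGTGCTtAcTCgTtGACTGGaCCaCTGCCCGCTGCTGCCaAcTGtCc
Retn: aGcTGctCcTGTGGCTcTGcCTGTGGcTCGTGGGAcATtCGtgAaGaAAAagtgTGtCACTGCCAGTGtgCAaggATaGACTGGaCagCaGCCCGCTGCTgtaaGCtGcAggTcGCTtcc

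In this stretch 105 bases of Retnlg, 96 of Retnla and 79 of Retn matched Retnlb. Over the whole coding sequence, with gaps counted as differences, identity with Retnlb was 72.9% for Retnlg, 56.8% for Retnla and 57.1% for Retn. These are 256 of 351, 235 of 414 and 197 of 345 aligned positions. The coding sequence of Retnlb has 315 bases and that of Retnla 414, so gaps lower the figure of Retnla most. No window of 50 or 100 bases in the longest transcript of any of the 4 RELM genes, the 3 receptor genes, Stat6 or Il33 occurred on either strand of another gene's transcripts.

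Retnlb (ENSMUSG00000022650, GRCm38 chromosome 16, 48816856 to 48818892, plus strand) was at 31.3 and 29.3 CPM in WT and at 295 and 418 CPM in Vil-CREPTKO. The WT libraries were close to each other and the Vil-CREPTKO libraries were both far above them, without overlap. The values rest on 1598 and 1443 reads in WT and on 12829 and 20541 reads in Vil-CREPTKO. Against the mean of WT, Vil-CREPTKO replicate 1 was 9.74-fold and replicate 2 was 13.8-fold higher, and the fitted log2 fold change was 3.56 (SE 0.20, 95% interval 3.10 to 4.02). By log2 fold change Retnlb ranked 14 among the 17504 genes tested. For other genes, a call means an edgeR adjusted p under 0.05 and an absolute log2 fold change over 1. Of all genes tested, 52 (0.297%) were called higher and 1.34% lower. The 6 genes with reads were selected on this comparison, so a call is not read as a result for them. The groups did not overlap in CPM for 1 of the 6 genes, Retnlb, and for 45.1% of all genes tested.

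Per kilobase of exon, which allows levels of different genes to be compared, Retnlb was at 44.97 and 42.1 CPM per kb in WT and at 424 and 601 CPM per kb in Vil-CREPTKO. It thereby moved from ranks 1146 and 1285 among 17129 genes to ranks 138 and 82. The goblet cell markers, among them the secreted products Fcgbp, Clca1 and Tff3, went the other way in sum, from 8942 and 9616 CPM in WT to 7595 and 7525 CPM in Vil-CREPTKO. Set against that sum, which does not include it, Retnlb amounted to 0.350% and 0.305% in WT, against 3.89% and 5.56% in Vil-CREPTKO. None of the 11 goblet cell markers tested was called in either direction by edgeR or DESeq2. Without adjustment 3 had an edgeR p under 0.05, beside 2495 of all 17504 genes tested. Of the 11, 2 had a positive and 9 a negative log2 fold change. Their median was -0.16, beside -0.01 for all genes tested. Among the 11 regulators of goblet and intestinal fate, which share Spdef, Atoh1, Foxa3 and Creb3l1 with the goblet list, none was called by either tool, 1 had an unadjusted p under 0.05, and the median was -0.11. In bulk crypts fewer cells of a type and less RNA per cell cannot be told apart, nor can more Retnlb per goblet cell and more cells that make it. By staining, the study found fewer goblet cells per villus in the jejunum of Vil-CREPTKO mice, which is not a count in these crypt preparations.

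In unchallenged mice Retnlb is mainly a gene of the colon and caecum, so markers of intestinal position were read beside it. The 6 colon markers summed to 1754 and 1697 CPM in WT and to 945 and 899 CPM in Vil-CREPTKO, and were thus lower where Retnlb was higher. Most of this sum was Lypd8, and Car1, a defining enzyme of colon epithelium, had no reads in any library. Hoxb13, a homeobox gene of the distal colon, had 1 and 3 reads in WT and 23 and 1 reads in Vil-CREPTKO. The proximal small intestine markers overlapped between the groups, at 3429 and 4518 CPM in WT and at 4447 and 2991 CPM in Vil-CREPTKO. The distal small intestine markers were at 24.5 and 25.9 CPM in WT and at 24.7 and 17.3 CPM in Vil-CREPTKO, also with overlap. The part of intestinal position in the level of Retnlb was not tested.

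Retnla (ENSMUSG00000061100, GRCm38 chromosome 16, 48842551 to 48844461, plus strand) lies next to Retnlb and encodes RELMα, best known from alternatively activated macrophages. It had only 46 and 15 reads in WT and 121 and 26 reads in Vil-CREPTKO, or 0.901 and 0.305 CPM against 2.78 and 0.530 CPM. Vil-CREPTKO replicate 1 was high, while Vil-CREPTKO replicate 2 lay between the WT libraries. The log2 fold change of 1.44 (SE 0.78, 95% interval -0.33 to 3.22) became -0.19 when Vil-CREPTKO replicate 1 was left out and 2.20 when the other Vil-CREPTKO library was. It was 2.42 without WT replicate 1 and 0.87 without WT replicate 2, so single libraries set both its size and its sign. The 8 macrophage markers had a like order, at 9.89 and 6.26 CPM in WT and at 14.5 and 6.72 CPM in Vil-CREPTKO in sum, with 0 to 2 of them at 0 in a library. The 9 stromal and endothelial markers summed to 17.3 and 16.6 CPM in WT and to 29.7 and 11.3 CPM in Vil-CREPTKO, again highest in Vil-CREPTKO replicate 1. Their part in the Retnla values was not tested.

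Retn (ENSMUSG00000012705, GRCm38 chromosome 8, 3655770 to 3660110, plus strand) encodes resistin, a hormone of mouse adipocytes, and had no reads in any library. At this depth a count of 0 leaves room for up to 3 reads, a level of 0.0588 to 0.0690 CPM. Adipocyte markers were near absent too, at 0.0196 to 0.122 CPM in sum, with Adipoq and Lep at 0 in every library. Retnlg (ENSMUSG00000022651, GRCm38 chromosome 16, 48872621 to 48874496), a product of neutrophils and other marrow cells, had 6 and 0 reads in WT and 9 and 10 reads in Vil-CREPTKO and was too low to be tested. The difference between genotypes among RELM genes was therefore measurable for Retnlb, poorly measurable for Retnla, and not measurable for Retn or Retnlg.

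**Figure D1:**
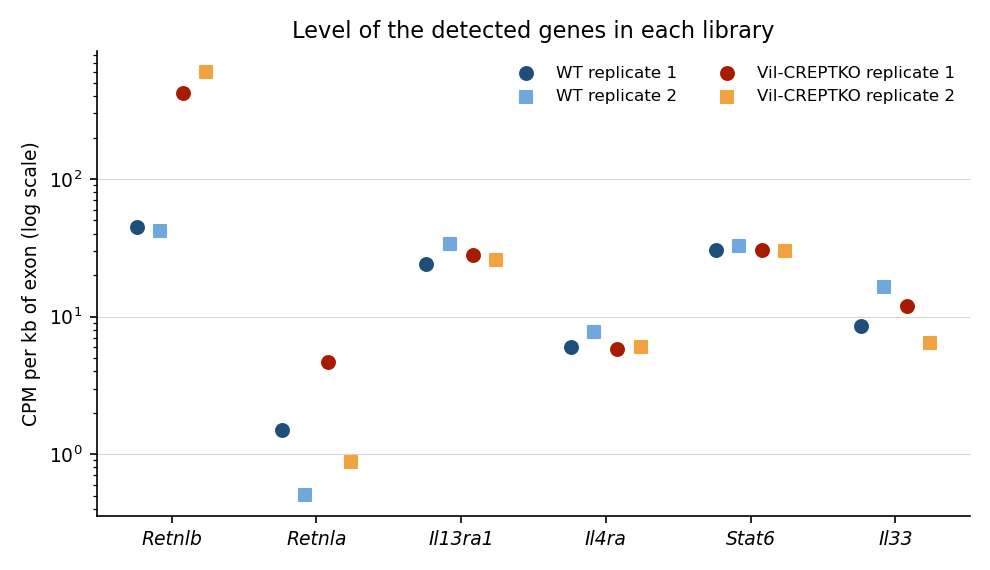
Levels of the 6 genes with reads in each of the 4 libraries, as CPM per kb of exon on a log axis; each point is 1 library, blue for WT and red or orange for Vil-CREPTKO. Retnlb lies at 42.1 to 44.97 in WT and at 424 to 601 in Vil-CREPTKO, whereas the points of both genotypes overlap for Retnla, Il13ra1, Il4ra, Stat6 and Il33.

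Il4ra (ENSMUSG00000030748, GRCm38 chromosome 7, 125552120 to 125579474, plus strand) encodes IL-4Rα, the chain shared by the receptors of IL-4 and IL-13. It was at 36.0 and 46.0 CPM in WT and at 35.0 and 36.4 CPM in Vil-CREPTKO. WT replicate 2 was higher than the other libraries, which lay close together, and the groups overlapped. The log2 fold change was -0.20 (SE 0.15, 95% interval -0.53 to 0.13) and -0.01 without WT replicate 2. An antisense gene overlaps 44 of the 5256 bases of its longest transcript and 571 of its 6002 exon bases in all. Because the strand setting of the counting was not given, reads within that overlap cannot be told apart.

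Il13ra1 (ENSMUSG00000017057, GRCm38 chromosome X, 36112110 to 36171259, plus strand) encodes the chain that pairs with IL-4Rα on epithelial cells. It was at 89.5 and 126 CPM in WT and at 104 and 95.6 CPM in Vil-CREPTKO. Both Vil-CREPTKO values lay between the WT values. The log2 fold change was -0.11 (SE 0.17, 95% interval -0.49 to 0.28), and it was 0.16 without WT replicate 2, the female library.

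Il13ra2 (ENSMUSG00000031289, GRCm38 chromosome X, 147383476 to 147429192, minus strand), the decoy receptor of IL-13, had no reads in any library. Its upper limit is that of Retn, 0.0588 to 0.0690 CPM, so no difference was detectable at this depth.

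Stat6 (ENSMUSG00000002147, GRCm38 chromosome 10, 127642986 to 127660957, plus strand), the transcription factor that both receptors activate, was at 134 and 143 CPM in WT and at 135 and 132 CPM in Vil-CREPTKO. All 4 libraries were alike and the groups overlapped. The log2 fold change was -0.05 (SE 0.13, 95% interval -0.34 to 0.23). STAT6 acts after phosphorylation, which RNA levels do not measure. The last 40 of the 4402 exon bases overlap Nab2 on the opposite strand, and reads within them cannot be told apart.

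Il33 (ENSMUSG00000024810, GRCm38 chromosome 19, 29925114 to 29960718, plus strand) encodes a nuclear alarmin that is released from damaged epithelial, endothelial and stromal cells. It was at 24.6 and 47.6 CPM in WT and at 34.3 and 18.5 CPM in Vil-CREPTKO. The groups overlapped, and the highest library was WT replicate 2. The log2 fold change was -0.45 (SE 0.34, 95% interval -1.22 to 0.31). It ran from -0.97 without Vil-CREPTKO replicate 1 to 0.10 without WT replicate 2, so its sign rested on the female library. Within Vil-CREPTKO both Il33 and the stromal and endothelial markers were higher in replicate 1, whereas within WT those markers were alike and Il33 was not. Their part in the Il33 values was not tested.

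**Figure D2:**
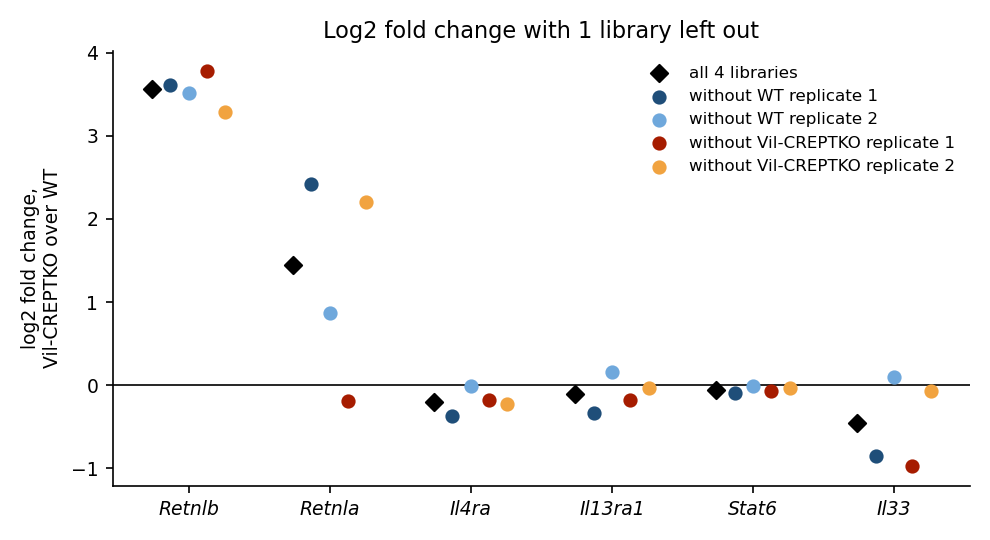
Log2 fold change of Vil-CREPTKO over WT for the 6 genes with reads, from all 4 libraries (black diamonds) and with each library left out in turn (coloured points). Retnlb stays between 3.29 and 3.78, Retnla runs from -0.19 to 2.42, Il33 from -0.97 to 0.10, and Il4ra, Il13ra1 and Stat6 lie near 0.

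Within WT the order of the levels per kilobase was Retnlb, Stat6, Il13ra1, Il33, Il4ra and Retnla. Retnlb at 42.1 to 44.97 CPM per kb was above Stat6 at 30.5 to 32.4, and Stat6 and Il13ra1 at 24.1 to 33.9 did not differ beyond their spread. Il33 followed at 8.52 to 16.5, Il4ra at 6.00 to 7.67 and Retnla at 0.509 to 1.504 CPM per kb, each with a range below that of the gene before it. In Vil-CREPTKO the order was the same, with Il33 at 6.40 to 11.9 and Il4ra at 5.84 to 6.06 CPM per kb as the neighbours with the smallest gap between their ranges. The 2 receptor chains thus differed from each other in both genotypes, with Il13ra1 above Il4ra in every library. Order did not depend on whether exon length or the longest transcript was used, for 6 of 6 genes.

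The question of which other genes of the pathway moved was read from 4 lists. Of 7 type 2 cytokine and alarmin genes, only Il25 and Areg had enough reads to be tested, and neither was called by edgeR or DESeq2 or had an unadjusted p under 0.05. Il4 had 2 to 4 reads per library, Il13 had 0 to 7, and Il5 and Il9 had none in any library. Areg, the most abundant member, a growth factor for epithelium, was at 4.37 and 6.12 CPM in WT and at 6.07 and 7.49 CPM in Vil-CREPTKO (edgeR adjusted p = 0.563). Il25, the tuft cell cytokine that starts type 2 responses in the intestine, had 18 and 32 reads in WT and 12 and 5 in Vil-CREPTKO, a change of -1.41 on the log2 scale (SE 0.73, adjusted p = 0.443 in edgeR). Il4, Il13, Il5, Il9 and Il25 were named after their values were seen.

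Of the 8 other receptor genes of type 2 signals, 1 was called lower and none higher, beside 1.34% and 0.297% of all genes tested. Log2 fold changes were positive for 5 and negative for 3 of them, with a median of 0.16. The gene called lower was Il17rb, which encodes the receptor chain for IL-25. It was at 4.72 and 8.05 CPM in WT and at 1.29 and 2.44 CPM in Vil-CREPTKO, with no overlap. Its log2 fold change was -1.77 with an SE of 0.38 (edgeR, adjusted p = 0.04998, just inside the threshold). The call was lost with 2 other scalings (edgeR adjusted p = 0.0591 and 0.0661). It was kept with DESeq2 (adjusted p = 0.000384). It was also kept with library-size scaling, a replicate block and the other filters (edgeR adjusted p of 0.043 or lower). The call was lost without Vil-CREPTKO replicate 1 (log2 fold change -1.39) and without WT replicate 2 (-1.33). The log2 fold change was -2.30 without Vil-CREPTKO replicate 2 and -2.10 without WT replicate 1. Il17ra, the partner chain and the most abundant of the list, was at 18.0 and 19.9 CPM in WT and at 19.5 and 19.6 CPM in Vil-CREPTKO (adjusted p = 0.926, edgeR). Tuft cell markers moved the same way as Il17rb and Il25: their 13 genes, Il25 included, summed to 233 and 281 CPM in WT and to 144 and 137 CPM in Vil-CREPTKO. Of the 12 tested, 2 were called lower, Trpm5 and Avil, beside 1.34% of all genes tested. Without WT replicate 2, Trpm5 was still called at -1.33 and Avil, at -0.95, was not. The part of tuft cell markers in these values was not tested.

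None of the 14 Janus kinase, STAT and feedback genes was called in either direction by edgeR or DESeq2, and their median log2 fold change was -0.10. Jak2, a kinase of the IL-13 receptor complex and the most abundant of them, was at 127 and 171 CPM in WT and at 184 and 138 CPM in Vil-CREPTKO, so the groups overlapped (edgeR adjusted p = 0.869). Without adjustment 3 of the 14 had p under 0.05 in edgeR, beside 2495 of all 17504 genes tested. Among the 3 was the feedback inhibitor Socs3 with a log2 fold change of 0.41, named after its value was seen. No gene of the 4 lists was called higher by either tool.

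The fourth list held 15 epithelial genes known to be raised by IL-4 or IL-13, the response that Retnlb itself belongs to. Of the 12 tested, edgeR called 5 lower and none higher, beside 1.34% and 0.297% of all genes tested. The list was written with earlier results of these data known, so these counts are a description. DESeq2 called 4 lower. Log2 fold changes were negative for 10 of the 12, beside 8913 of all 17504 genes tested. Their median was -1.41, beside -0.01 for all genes tested. The 5 called by edgeR were the phospholipase gene Pla2g4c, the gasdermin genes Gsdmc2, Gsdmc3 and Gsdmc4, and Sprr2a1, which encodes a small proline-rich protein. The 3 gasdermin genes are neighbours that share part of their sequence, so they are not separate observations. Retnlb, at 3.56, and the 5 called genes went in opposite directions in the same libraries.

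Pla2g4c was at 107 and 340 CPM in WT and at 18.5 and 42.5 CPM in Vil-CREPTKO, which is -2.87 on the log2 scale (SE 0.54, adjusted p = 0.0288, edgeR). Gsdmc2 was at 153 and 328 CPM in WT and at 36.9 and 57.7 CPM in Vil-CREPTKO (-2.35, SE 0.35, adjusted p = 0.0112, edgeR). Gsdmc4, a pore-forming protein gene of the same cluster, was at 277 and 562 CPM in WT and at 60.7 and 121 CPM in Vil-CREPTKO (-2.21, SE 0.38, edgeR adjusted p = 0.0232). In each of these genes both Vil-CREPTKO libraries lay below both WT libraries, and WT replicate 2, the female library, was the highest of the 4. Sprr2a1 had the same order, with 29.4 and 67.9 CPM in WT and 8.28 and 12.9 CPM in Vil-CREPTKO (-2.20, SE 0.37, edgeR adjusted p = 0.0198). Without WT replicate 2 the log2 fold changes were smaller, -1.80 for Pla2g4c, -1.69 for Gsdmc2, -1.66 for Gsdmc3, -1.61 for Gsdmc4 and -1.47 for Sprr2a1, and all 5 were still called. With DESeq2 the call of Pla2g4c was lost (adjusted p = 0.0566).

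These related genes share reads in part. Of the windows of 50 bases in Gsdmc2, Gsdmc3 and Gsdmc4, 48.5%, 46.9% and 39.0% occurred in another gasdermin C gene, and in Sprr2a1 96.3% occurred in another gene, which leaves the split of reads among these copies uncertain. In Pla2g4c the share was 2.66%. Summed over Gsdmc2, Gsdmc3 and Gsdmc4, levels were 475 and 972 CPM in WT and 108 and 197 CPM in Vil-CREPTKO, without overlap. Summed over Sprr2a1, Sprr2a2 and Sprr2a3, they were 67.3 and 155 CPM in WT and 39.3 and 74.2 CPM in Vil-CREPTKO, so the groups overlapped for these copies together. Sprr2a3 alone was at 36.6 and 75.9 CPM in WT and at 30.8 and 60.3 CPM in Vil-CREPTKO, also with overlap.

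The goblet cell genes of the same list were not called. Clca1, a mucus protein gene, was at 1656 and 2145 CPM in WT and at 1043 and 1356 CPM in Vil-CREPTKO, which is -0.66 on the log2 scale (SE 0.24, adjusted p = 0.231, edgeR). The adjusted p of Clca1 was 0.0128 with DESeq2, 0.0460 with library-size scaling and 0.0390 without a filter on low counts, and under these 3 settings the call failed on the fold threshold alone. Under the other alternatives the adjusted p was 0.142 to 0.624. Fcgbp, the most abundant of the list and also a mucus protein gene, was at 3959 and 4206 CPM in WT and at 3320 and 3546 CPM in Vil-CREPTKO (edgeR adjusted p = 0.715). Both had lower values in Vil-CREPTKO without overlap, whereas the lectin gene Itln1, at 1343 and 2161 CPM against 1642 and 1878 CPM, overlapped. Gsdmc3, Sprr2a2, Sprr2a3, Clca1 and Itln1 were named after their values were seen.

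**Figure D3:**
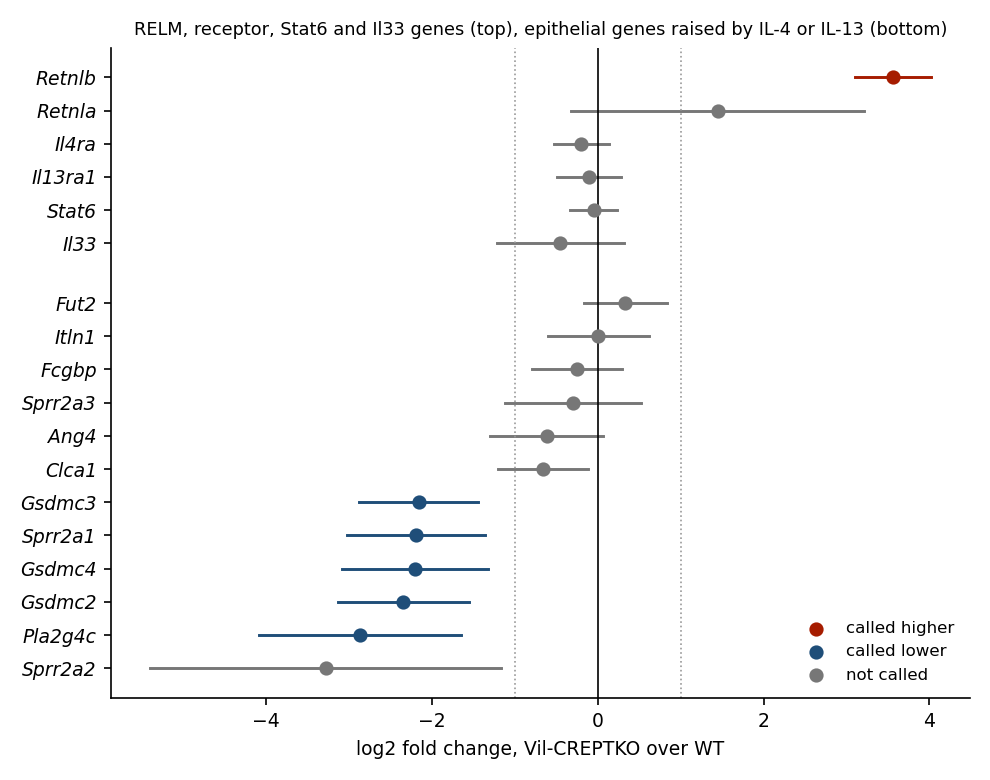
Log2 fold change of Vil-CREPTKO over WT with 95% intervals (horizontal lines) for the 6 genes with reads (top) and the 12 tested epithelial genes raised by IL-4 or IL-13 (bottom); red is called higher, blue called lower, grey not called, and dotted lines mark 1 and -1. Retnlb at 3.56 is the only red point, a colour that is no test for a gene chosen on this comparison. In the lower group 5 genes, from -2.16 to -2.87, are blue.

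**Figure D4:**
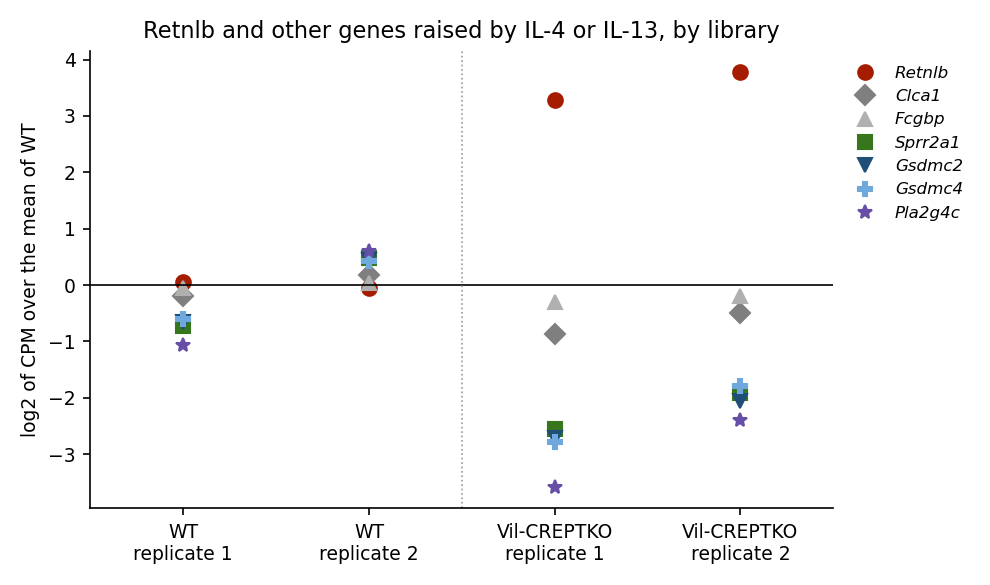
Log2 of CPM over the mean of WT in each library for Retnlb and 6 epithelial genes raised by IL-4 or IL-13. Retnlb is 9.74-fold and 13.8-fold above WT in the Vil-CREPTKO libraries, while Pla2g4c, Gsdmc2, Gsdmc4 and Sprr2a1 lie below 0 there and Clca1 and Fcgbp are closer to 0.

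STAT6 binds palindromes made of TTC and GAA with a spacer between them. The promoter table, from RefSeq on GRCm38.p6, held 7 of the 8 genes, all but Retnlb. The motif TTC, any 4 bases, GAA, which reads the same on both strands, was present in the 250 bases before the start of Retnla, of Retnlg and of 1 of 2 starts of Il33, and in 5.85% of all 32851 promoters. The form with 3 bases between TTC and GAA was in none of these genes and in 7.02% of all promoters. The windows of Retnla and Retnlg are shown, with the motif in capitals, because they are the RELM genes that hold it. They are Retnla at chr16:48842419-48842518 and Retnlg at chr16:48872491-48872590, both on the plus strand of GRCm38.p6.
Retnla: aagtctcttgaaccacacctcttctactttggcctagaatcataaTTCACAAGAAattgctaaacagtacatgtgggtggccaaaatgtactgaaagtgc
Retnlg: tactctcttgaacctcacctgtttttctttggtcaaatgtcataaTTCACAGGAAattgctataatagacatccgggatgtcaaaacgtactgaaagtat
The motif begins 145 bases before the RefSeq start of Retnla and 72 bases before that of Retnlg. From the GENCODE starts given with the 2 genes, which differ from those of RefSeq, it is 87 and 85 bases away. A match of letters is not a measured binding site.

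Which genes had a pattern most like that of Retnlb was read from the distance between log2 CPM values over the 4 libraries, each gene centred on its WT mean, among 12170 genes. The closest were Mt1 (0.983), Phlda3 (0.986), Amotl1 (1.25), Eda2r (1.38) and Dnah10 (1.38), beside a median distance of 5.01. Mt1 encodes a metallothionein and was at 211 and 107 CPM in WT and at 1719 and 1258 CPM in Vil-CREPTKO. Phlda3, a p53 target that restrains Akt, was at 0.842 and 0.955 CPM in WT and at 5.91 and 7.68 CPM in Vil-CREPTKO. Eda2r, a receptor gene also known as a p53 target, was at 1.23 and 1.63 CPM in WT and at 7.32 and 10.4 CPM in Vil-CREPTKO. Like Retnlb, Phlda3, Eda2r and Amotl1 (3.64 and 4.99 CPM) were higher in Vil-CREPTKO replicate 2 than in replicate 1. Mt1 and Dnah10 (6.21 and 2.57 CPM) were higher in Vil-CREPTKO replicate 1. The likeness rests on 4 libraries and chiefly on the difference between the genotypes.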

How the data were processed

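The values analysed were the read counts per gene that the authors deposited, whole numbers in 1 column per library. The submitters' processing notes and the study's methods name CASAVA 1.8, Bowtie2, RSEM and GRCm38.p6. The counting step behind the whole numbers, the strand setting and the versions of Bowtie2 and RSEM were not given in the sources used here. The instrument was BGISEQ in the methods and an Illumina instrument in the record.

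Identifiers were matched to GENCODE M21 (53360 of 53845, 99.1%). The 380 unnamed loci (0.178% to 0.247% of counts) were kept in the tests. Groups were taken from sample titles. In R 4.3.3, edgeR 4.0.16 was applied with filterByExpr, TMM scaling and a quasi-likelihood test of genotype (glmQLFTest, two-sided) over 17504 genes, with Benjamini-Hochberg adjustment over all of them. A gene was called at an adjusted p under 0.05 and an absolute log2 fold change over 1, the thresholds of the study's methods. CPM are TMM-scaled, and CPM per kb used the union of exons. Intervals used the moderated degrees of freedom. The common biological coefficient of variation was 0.188, which exceeds counting error except in genes with few reads, such as Retnla and Il25. The libraries of a group differed beyond sampling noise (chi-square per gene 49.8 in WT and 70.1 in Vil-CREPTKO). The procedure was tested on simulated data. The genes and lists were chosen with earlier results of these data known. Named were the 8 genes, Rprd1b, Retnlg, sex-linked genes, in each list the called genes (the 4 largest changes if over 4) and the most abundant one, and the 5 genes most like Retnlb among tested genes whose log2 CPM averaged 1 or more. Alternatives were DESeq2 1.42.0, other scalings and filters, no fold threshold, longest transcript length, a replicate block and leaving out each library. P-values set the difference between genotypes against the spread between libraries of a group, moderated over genes. In WT that spread includes a difference of sex.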

Additional observations from a re-analysis of the deposited data

How the results depend on the processing

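The numbers of genes called, 52 higher and 235 lower, moved with the processing. Genes called higher were 87 with DESeq2 and 163 without a filter on low counts, and 62 to 135 with 1 library left out. Genes called lower were 379 with library-size scaling, 450 without a filter and 400 without a fold threshold. Retnlb was higher under all 11 alternatives (log2 fold change 3.29 to 3.78), and 5 to 7 pathway genes were called lower and 0 higher. The samples share replicate numbers, but deviations of same-numbered libraries correlated at r = 0.0277 over 17504 genes, so the numbers were not read as pairs (2 numbers only). With the replicate block 67 genes were called higher and 269 lower. Library-size scaling moved the median of all genes by -0.09, and Stat6 then had -0.14. With 2 libraries per group small differences of Il4ra, Il13ra1, Stat6 and Il33 were not detectable.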

Other observations

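Each list of markers of cells other than epithelium had reads in all 4 libraries, at levels that differed widely between lists. Single markers such as Ly6g and Adipoq had none. The 9 T cell and innate lymphoid cell markers summed to 260 and 181 CPM in WT and to 190 and 146 CPM in Vil-CREPTKO, with overlap. None of the 8 tested was called by edgeR or DESeq2. Without adjustment 1 had an edgeR p under 0.05, beside 2495 of all 17504 genes tested. Most of the sum was Ptprc, Cd8a and Cd3g, at 77.8, 91.0 and 42.4 CPM in WT replicate 1. Gata3, Cd4 and Rora, genes of the cells that make IL-4 and IL-13, were at 0.143 to 2.09 CPM. Klrg1 had 1 to 5 reads per library. Cd4 and Rora had positive log2 fold changes (0.34 and 0.90), and 6 of the 8 had negative ones. Eosinophil and mast cell markers summed to 64.3 and 39.7 CPM in WT and to 35.5 and 21.8 CPM in Vil-CREPTKO. Without adjustment 2 of the 6 tested had an edgeR p under 0.05, beside 2495 of all 17504 genes tested. None of the 6 was called by edgeR, whereas DESeq2 called 1 lower, Siglecf, which tuft cells also express. The median log2 fold change was -0.83. Without Siglecf, at 10.9 and 24.2 CPM in WT and at 7.89 and 6.52 CPM in Vil-CREPTKO, the sum was 53.5 and 15.5 CPM in WT and 27.6 and 15.3 CPM in Vil-CREPTKO, and the groups overlapped. The eosinophil gene Epx had 5 reads in WT replicate 1 and none elsewhere, and Prg2 had 1 read in all. Genes were named here after their values were seen. Mcpt1, a protease of mucosal mast cells, was at 36.5 and 10.5 CPM in WT and at 18.0 and 9.98 CPM in Vil-CREPTKO, and its groups overlapped. Neutrophil markers stayed at 0.0203 to 0.803 CPM in sum.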
